A study of Caenorhabditis elegans with 18 samples.

Results

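RNAs that copurified with FBF-1 were compared with those that copurified with FBF-2 in *C. elegans* adults whose germlines made only sperm. The comparison took 3 FBF-1 libraries and 3 FBF-2 libraries of the 18 in the series, and of the 26709 genes in the table it covered the 6203 RNAs whose mean over these 6 libraries reached 20 counts. The minimum used the mean of both proteins together and not their difference, although an RNA could reach it through the libraries of either protein alone. 27 RNAs stood exactly at the mean of 20 counts, and the highest mean left out was 19.8 counts. FBF-RNA complexes were measured by iCLIP, in which RNA is joined to protein by UV light inside the worm, the tagged protein is pulled down and the fragments bound to it are sequenced. The reads on an RNA therefore depend on both its abundance and its binding.

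FBF-1 and FBF-2 are PUF family proteins, RNA-binding proteins that recognize short elements, mostly in the 3′ untranslated regions of messenger RNAs, and lower the stability or translation of those messages. They are close relatives that act largely redundantly to maintain germline stem cells, and each is also known to act in the switch from sperm to oocytes. They differ in part in where they are found in the germline and in how they affect target RNAs.

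All animals were XX adults with hermaphrodite somatic tissues, grown at 25°. The FBF-1 libraries came from animals with the deletion fbf-1(ok91), a single-copy transgene qSi232[3xflag::fbf-1] that stands in for the deleted gene, and an intact fbf-2. The FBF-2 libraries came from animals with the deletion fbf-2(q738), the single-copy transgene qSi75[3xflag::fbf-2] and an intact fbf-1. Both strains also carried fem-3(q22 ts,gf), a gain of function that makes the germline spermatogenic at 25°, listed over the balancer nT1[qIs51]. Protein and strain cannot be told apart in this design, and each protein was measured in 1 strain. The 3 spermatogenic controls were immunopurified without the FLAG antibody, and the sources used here do not give their strain. The oogenic libraries used below came from animals with the same transgenes and fbf deletions but without the fem-3 allele, with 3 libraries for each protein.

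The FBF-1 libraries held 525318 to 1209193 counts on genes and the FBF-2 libraries 673361 to 1133534, against 59621 to 145625 in the controls, so that 1 count in a control stood for a higher RPM than 1 count in an FBF library. The labels place the 6 FBF libraries in lane 1 and the 3 controls in lane 3. rRNA took 11.9 to 14.3% of the counts with FBF-1 and 12.9 to 15.4% with FBF-2. Every pair of replicates differed by more than counting noise, and each library was counted as 1 replicate. Since the transgene RNAs are counted with the genes they replace, the levels of the fbf genes are no check of the labels. Levels are given as RPM, the count on a gene scaled to a library total of 1000000 counts on genes, in libraries 1, 2 and 3 of a group, and differences as log2 differences, FBF-1 minus FBF-2, on which 1 is a 2-fold difference. The tests measure the spread between these replicates of 1 strain each.

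Of the 6203 RNAs, 248 were called higher with FBF-1, or 4%, and 107 were called higher with FBF-2, or 1.72%, which together came to 5.72%. A call required an adjusted p under 0.01 (edgeR's quasi-likelihood test, Benjamini-Hochberg) and a difference over 2-fold. The median difference over all RNAs was 0.01, and the middle 90% of RNAs lay between -0.74 and 0.91. Without the fold minimum, 753 RNAs passed the p threshold with FBF-1 higher, 12.1%, and 621 with FBF-2 higher, 10%. Most called differences were small, with a median size of 1.24 on the log2 scale for the RNAs higher with FBF-1 and 1.2 for those higher with FBF-2. On the FBF-1 side 19 RNAs exceeded 4-fold, and on the FBF-2 side 20 did. The largest difference on the FBF-1 side was 3.07. On the FBF-2 side the largest fitted value belonged to C18B10.6, which had 0 counts with FBF-1 and thus no measured fold, and the next was -6.04. The levels of the 2 groups of libraries did not overlap for 246 of the 248 and 106 of the 107, beside 42.3% of all RNAs tested.

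RNAs were called at low and at moderate mean counts. Among the 172 RNAs whose mean reached 500 counts, 0 were called higher with FBF-1 by edgeR and by DESeq2, although 21 had an unadjusted p under 0.05 on that side, and daz-1 and fog-3 were called higher with FBF-2. Among the 2534 RNAs with a mean under 50 counts, 50 were called higher with FBF-2, or 1.97%, and 130 with FBF-1, or 5.13%, against 2.05% and 3.37% of the 1956 RNAs between 100 and 500 counts. The RNAs called higher with FBF-1 took 3.11 to 3.24% of the counts in FBF-1 libraries, 1.16 to 1.3% in FBF-2 libraries and 1.05 to 1.15% in the controls. Those called higher with FBF-2 took 0.898 to 0.938% with FBF-1, 2.02 to 2.2% with FBF-2 and 0.387 to 0.437% in the controls. The count minimum set how many RNAs were called, and a mean of at least 100 counts left 66 and 42.

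**Figure D1:**
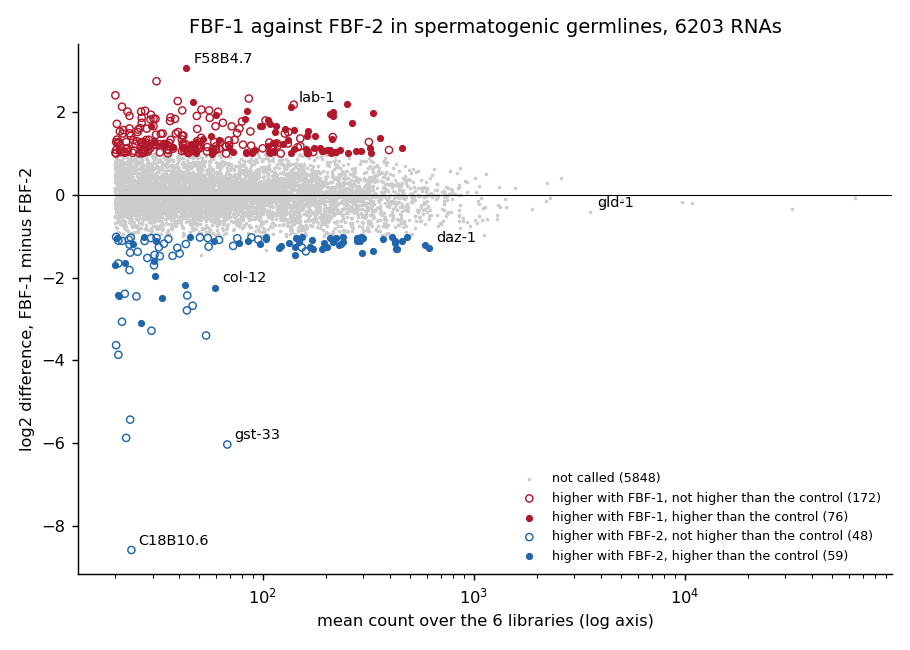
Each point is 1 of 6203 RNAs, with its mean count over the 6 libraries on a log axis and its log2 difference, FBF-1 minus FBF-2, on the vertical axis. Called RNAs are coloured by the protein with which they were higher, filled where the mean of both proteins was also higher than the control. The 248 red points lie at or below 3.07, and the lowest of the 107 blue points, C18B10.6, had 0 counts with FBF-1, so that its place is set by the fit and is no measured fold.

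The next question was whether the RNAs that differed stood above the background of the purification. Over all 6203 RNAs, the mean of the proteins was higher than the control for 2391, 38.5%, and lower for 394, 6.35%, by edgeR's quasi-likelihood test with library-size scaling at the same thresholds. This contrast does not use the difference between the proteins. Among the 248 RNAs called higher with FBF-1, 76 were higher than the control, 7 were lower and 165 were neither. Among the 107 called higher with FBF-2, 59 were higher, 10 lower and 38 neither. With FBF-1 alone 2416 RNAs were higher than the control, 38.9%, and with FBF-2 alone 2314, 37.3%. Of the 248, 38 were higher than the control with both proteins, and 91 with FBF-1 but not FBF-2. Of the 107, 46 were higher than the control with both proteins, and 34 with FBF-2 but not FBF-1. The median log2 difference over the control was 1.49 in FBF-1 libraries and 0.02 in FBF-2 libraries for the 248, and 1.59 and 3.27 for the 107. With library-size scaling, the median of the RNAs called higher with FBF-1 lay at about the control level in FBF-2 libraries. The median of those called higher with FBF-2 lay above the control with both proteins. This holds for the median and not for each RNA, since only 46 of the 107 were higher than the control with both. The single-protein values reuse the libraries that made the calls, so the order of the proteins in each set was fixed beforehand.

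Scaling and control depth bear on these counts. With TMM scaling of the control comparison the median over all RNAs moved from 0.96 to 0.34, and 42 of the 248 and 45 of the 107 were higher than the control. With DESeq2 40 and 42 were. 170 of the RNAs tested, 2.74%, had 0 counts in all 3 controls, among them 4 of the 248 and 15 of the 107, and without them 72 of the 248 and 48 of the 107 were higher than the control.

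The RNAs with the largest differences on the FBF-1 side that also stood above the control were mostly uncharacterized. F58B4.7 (WBGene00077682, chromosome V, 10922980 to 10923329 on the minus strand in the WBcel235 annotation of Ensembl release 115) had 90.2, 72.3 and 88.5 RPM with FBF-1 and 13.4, 7.06 and 10.2 RPM with FBF-2. The groups were far apart, with a log2 difference of 3.07 (SE 0.24, adjusted p = 3.5e-11 in edgeR's quasi-likelihood test, Benjamini-Hochberg). The 3 controls together held 1 count of it. F58F12.2 was more abundant, with 460, 558 and 410 RPM with FBF-1, 111, 93.5 and 96.1 RPM with FBF-2 and 36.7, 67.1 and 27.5 RPM in the controls. Every FBF-1 library lay above every FBF-2 library, and every FBF-2 library above every control (log2 difference of the proteins 2.21, SE 0.14). The noncoding RNA linc-36 had 84.1, 83.8 and 88.5 RPM with FBF-1 and 23.8, 12.4 and 18.1 RPM with FBF-2, a log2 difference of 2.26.

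For W02B12.12 and gska-3 the FBF-2 libraries overlapped the control. W02B12.12 had 357, 398 and 362 RPM with FBF-1, 77.2, 105 and 91.5 RPM with FBF-2 and 45.9, 168 and 96.1 RPM in the controls, so that the FBF-2 libraries lay within the range of the controls. gska-3, named for its similarity to glycogen synthase kinases, had 409, 413 and 348 RPM with FBF-1, 92.1, 83.8 and 103.98 RPM with FBF-2 and 64.3, 67.1 and 96.1 RPM in the controls. C34C12.4 had 573, 681 and 565 RPM with FBF-1, 151, 158 and 134 RPM with FBF-2 and 82.7, 67.1 and 75.5 RPM in the controls, which were separate groups (1.99). C06C3.10 and glct-6, which encodes a glucuronosyltransferase-like protein, differed by 2.03 and 1.93. Among RNAs not called over the control, the largest differences were those of cth-1, which encodes a cystathionine gamma-lyase (2.75), T05C12.9 (2.42), K04G2.4 (2.34) and F21C3.7 (2.28).

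Spermatogenic RNAs made up the largest named group on the FBF-1 side. Sperm form from spermatocytes that stop making RNA before they divide, and their proteins include the major sperm proteins, which form the sperm cytoskeleton. The study had named 29 RNAs as major targets specific to spermatogenesis, chosen on these libraries as enriched in spermatogenic but not in oogenic germlines and then by the height of their peak and a binding element in it. Of these, 23 were called higher with FBF-1 and 1, fog-3, with FBF-2, beside 4% and 1.72% of all RNAs. The median difference was 1.67. Since the list was chosen on these samples, it is no independent evidence. Among its members was glo-4, whose protein is an exchange factor known for its role in forming gut granules. glo-4 had 429, 499 and 451 RPM with FBF-1, 135, 133 and 130 RPM with FBF-2 and 138, 83.9 and 89.3 RPM in the controls. Its FBF-1 libraries lay above all the others while its FBF-2 libraries fell inside the range of the controls (log2 difference of the proteins 1.74, SE 0.12). ZK973.8 had 266, 253 and 289 RPM with FBF-1 and 105, 90.9 and 74.6 RPM with FBF-2 (1.55). The members that did not pass the p threshold were F27C8.5 (0.33), ZK686.5 (0.40) and ttr-9 (0.54), and snpc-1.3, a subunit of a small nuclear RNA transcription complex, passed it on the FBF-2 side (-0.64).

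A list of sperm markers moved the same way. All 19 of the 31 markers that were tested had a positive difference, from 0.38 to 1.34 with a median of 0.68. 3 were called higher with FBF-1, beside 4% of all RNAs. Against the control 3 of the 19 were higher and 1 lower, beside 38.5% and 6.35% of all RNAs. The markers called higher with FBF-1 were spe-44, a transcription factor that turns on sperm genes, spe-4, a presenilin-like protein needed for sperm formation, and peel-1, a toxin delivered by sperm. spe-44 had 180, 206 and 203 RPM with FBF-1, 80.2, 82.0 and 76.9 RPM with FBF-2 and 27.6, 101 and 48.1 RPM in the controls (1.25, SE 0.13). spe-4 had 104.4, 107 and 91.8 RPM with FBF-1, 32.7, 49.4 and 32.8 RPM with FBF-2 and 55.1, 33.5 and 41.2 RPM in the controls. For spe-4 only FBF-1 libraries stood out, since those with FBF-2 overlapped the controls, and neither spe-4 nor peel-1 was called over the control. peel-1 had 32.4, 19 and 38.9 RPM with FBF-1, 10.4, 15.9 and 9.04 RPM with FBF-2 and 73.5, 16.8 and 41.2 RPM in the controls, which overlapped the FBF-1 libraries, and its call was lost with DESeq2 (adjusted p = 0.0149). 12 of the 19 passed the p threshold without the fold minimum, but 5 did without FBF-1 replicate 1.

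The sum over the 31 sperm markers was 2088 to 2301 RPM with FBF-1, 1236 to 1509 RPM with FBF-2 and 1476 to 1579 RPM in the controls, so that the FBF-1 libraries lay above both other groups and the FBF-2 libraries overlapped the controls. The part of a difference in sperm RNA content between the strains in the differences of single RNAs was not tested. In these bulk samples, fewer cells of a type and less RNA per cell cannot be told apart.

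The major sperm protein genes followed the same order. All 30 that were tested had a positive difference, with a median of 0.56. 5 were called higher with FBF-1, beside 4% of all RNAs, and 8 of the 30 were higher than the control, beside 38.5%. On the FBF-2 side edgeR called 0, with 0 at an unadjusted p under 0.05 and 0 by DESeq2. msp-79 had 223, 238 and 194 RPM with FBF-1, 69.8, 72.3 and 63.3 RPM with FBF-2 and 0 counts in each control (1.60, SE 0.14). Against the level that 3 counts per control library would give, it was at least 6.65-fold higher with FBF-1 and at least 2.09-fold higher with FBF-2. msp-64 had 355, 383 and 321 RPM with FBF-1, 113, 136 and 133 RPM with FBF-2 and 82.7, 234.8 and 137 RPM in the controls, and its FBF-2 and control libraries overlapped. msp-77 (1.08), msp-78 (1.05) and msp-71 (1.17) were also called, the call of msp-78 being lost without FBF-1 replicate 2 or FBF-2 replicate 3. The call of msp-71 went with a level in the controls (50.3 to 184 RPM) that overlapped or exceeded that with FBF-1 (61.2 to 99.0 RPM). These genes have near-identical copies, and reads that mapped to several places had been removed, so values of single members are uncertain. 2 of 23 members of other sperm-specific families were called, beside 5.72% of all RNAs. These were nspa-8 (1.24) and nspd-6 (1.06), both higher with FBF-1 and neither above the control. The call of nspd-6 was lost without FBF-2 replicate 3.

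In lists of meiotic entry and Notch pathway genes and of cell cycle genes, 1 of 13 and 3 of 33 were called, beside 5.72% of all RNAs. These counts are too small to set the lists apart from all RNAs. sygl-1, a target of GLP-1/Notch signaling whose protein works with FBF to maintain stem cells, had 118, 123.7 and 88.5 RPM with FBF-1, 53.5, 42.3 and 46.3 RPM with FBF-2 and 0, 0 and 13.7 RPM in the controls. It was well above the control with both proteins and about 2-fold higher with FBF-1 (1.16, SE 0.18, adjusted p = 6.4e-06 in edgeR's quasi-likelihood test). It was the only called member of a list of 13 meiotic entry and Notch pathway genes, in which glp-1, the Notch receptor of the germline, had -0.20 and lst-1, the partner of sygl-1, had 0.11.

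The PUF family gene puf-7 had 386, 381 and 369 RPM with FBF-1, 200, 176 and 172 RPM with FBF-2 and 18.4, 0 and 0 RPM in the controls. The groups were well separated, but with a difference of 1.01 (SE 0.12) the RNA lay close to the 2-fold limit, and it dropped below it to 0.98, 0.95 and 0.98 without FBF-1 replicate 2, FBF-2 replicate 2 or FBF-2 replicate 3, and to 0.996 with DESeq2. Its neighbour in sequence puf-6 had 0.74, while fbf-2 (-0.79), puf-8 (-0.53) and fbf-1 (-0.52) had negative differences. The RNAs of fbf-1 and fbf-2 each came from a transgene in 1 strain and from the intact gene in the other. The paper calls these paralogs nearly identical, and multiply mapping reads had been removed, so their differences are uncertain. puf-6 and puf-7 are close in sequence as well, so their single values may be affected likewise. The differences of puf-6, puf-8, fbf-1 and fbf-2 passed the p threshold. Of the 4 family members that passed it on the FBF-2 side, 1 did without FBF-1 replicate 1.

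Of 33 cell cycle genes tested, bub-1, a spindle checkpoint kinase, and pcn-1, the replication clamp PCNA, were called higher with FBF-1, and cdt-1, a replication licensing factor, higher with FBF-2. pcn-1 had 305, 360 and 279 RPM with FBF-1, 141, 141 and 145 RPM with FBF-2 and 0, 16.8 and 27.5 RPM in the controls. cdt-1 had 141, 135 and 107 RPM with FBF-1 and 293, 244 and 241 RPM with FBF-2. The 2 RNAs thus had opposite orders, each with groups that did not overlap, at 1.08 and -1.08. The call of pcn-1 was lost without FBF-1 replicate 2 (0.96), and that of cdt-1 without FBF-1 replicate 3 (-0.89) or FBF-2 replicate 1 (-0.996), while without FBF-2 replicate 2 the list had 2 members called higher with FBF-2. The median of the list was 0.02, and -0.03 with DESeq2.

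**Figure D2:**
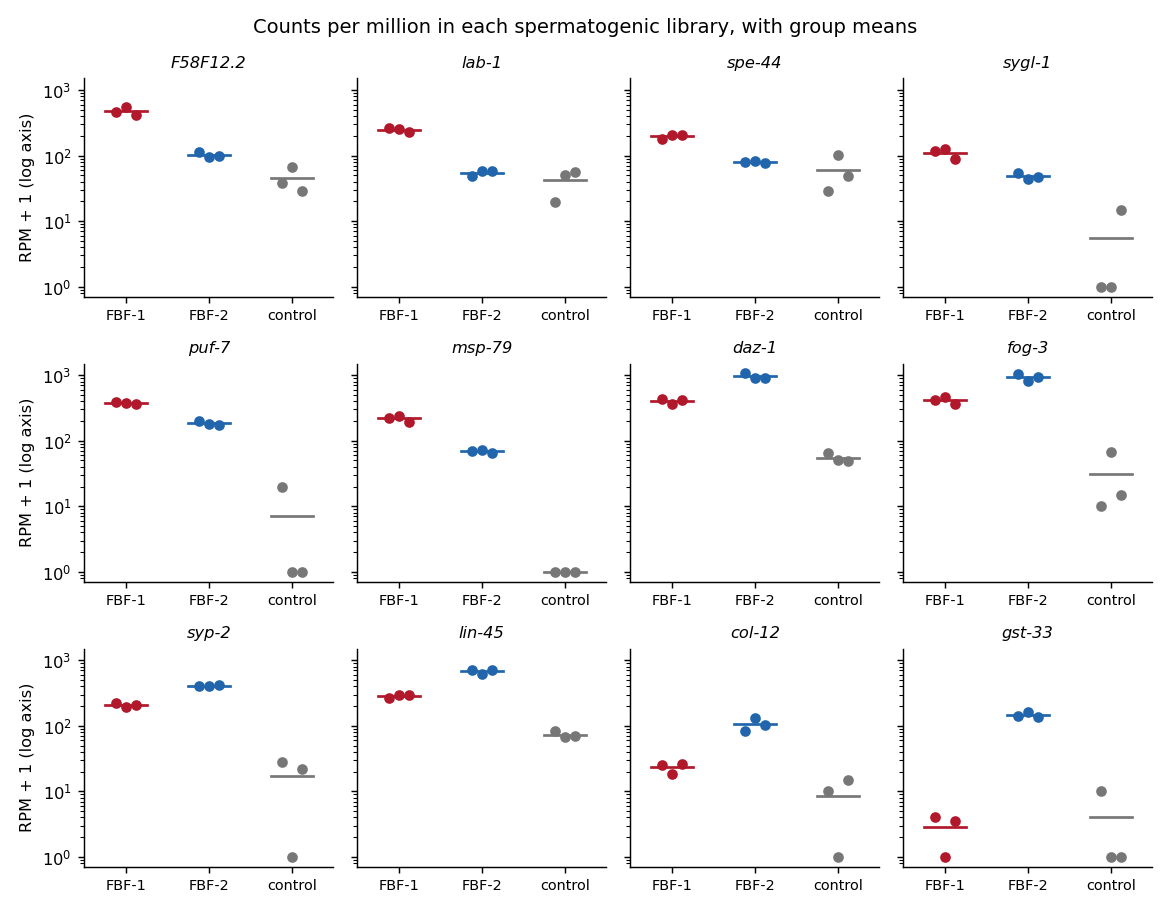
RPM plus 1 on a log axis for 12 RNAs in each of the 3 FBF-1, 3 FBF-2 and 3 control libraries of spermatogenic germlines, with bars at the group means. The 6 RNAs from F58F12.2 to msp-79 are higher in every FBF-1 library than in any FBF-2 library and the 6 from daz-1 to gst-33 the reverse, and the FBF-2 libraries of lab-1 and spe-44 lie near the controls.

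Among 15 RNAs established as FBF targets by earlier genetic or biochemical work, differences were mostly on the FBF-2 side. 12 of the 15 were negative, with a median of -0.52, beside 3043 of all 6203 RNAs. 14 of the 15 were higher than the control, beside 38.5% of all RNAs. 2, fog-3 and syp-2, were called higher with FBF-2, beside 1.72%. 8 passed the p threshold without the fold minimum, all higher with FBF-2, beside 10% of all RNAs, and 5 did without FBF-1 replicate 1. fbf-1 and fbf-2 are among the 12 and the 8, and each came from a transgene in 1 strain and the intact gene in the other. fog-3 encodes a Tob family protein that directs germ cells to the sperm fate. It had 417, 461 and 365 RPM with FBF-1, 1041, 804 and 925 RPM with FBF-2 and 9.18, 67.1 and 13.7 RPM in the controls. The groups did not overlap and both stood far above the control, with a difference of -1.2 (SE 0.14, adjusted p = 2.3e-08 in edgeR's quasi-likelihood test). syp-2, a central protein of the synaptonemal complex, had 219, 190 and 208 RPM with FBF-1 and 408, 407 and 414 RPM with FBF-2 (-1.03, SE 0.11), and its call was lost without FBF-1 replicate 3 (-0.99) and with library-size scaling (-0.98).

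The most frequent of these RNAs differed little. gld-1, whose RNA-binding protein drives entry into meiosis, had 3487, 3908 and 3157 RPM with FBF-1, 5021, 4001 and 4691 RPM with FBF-2 and 138, 67.1 and 185 RPM in the controls. Its difference was -0.41 (SE 0.16) and did not pass the threshold (adjusted p = 0.048 in edgeR's quasi-likelihood test). The sex determination gene fog-1, a CPEB protein, had 944, 1140.3 and 924 RPM with FBF-1 and 1574, 1325 and 1559 RPM with FBF-2, a difference of -0.61 that passed the p threshold but not the fold minimum. lip-1, a phosphatase that counters MPK-1, had -0.82, syp-3 had -0.71, and fem-3, a regulator of the sperm fate, had -0.66, each past the p threshold.

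The HORMA-domain axis genes him-3 (0.32), htp-1 (-0.13) and htp-2 (-0.34), the MAP kinase gene mpk-1 (0.18) and gld-3 (-0.24) did not pass it. htp-1 and htp-2 are near-identical in sequence and their single values are uncertain. egl-4, a cGMP-dependent protein kinase, was the exception to the enrichment over the control, with 346, 413 and 402 RPM with FBF-1, 342, 317 and 327 RPM with FBF-2 and 331, 386 and 336 RPM in the controls, and thus at the level of the control with both proteins. The paper gives egl-4 as a target known in neurons only and did not count it among those it looked for here. In a list of 15 sex determination genes fog-3 alone was called, beside 5.72% of all RNAs, and the median was -0.27.

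**Figure D3:**
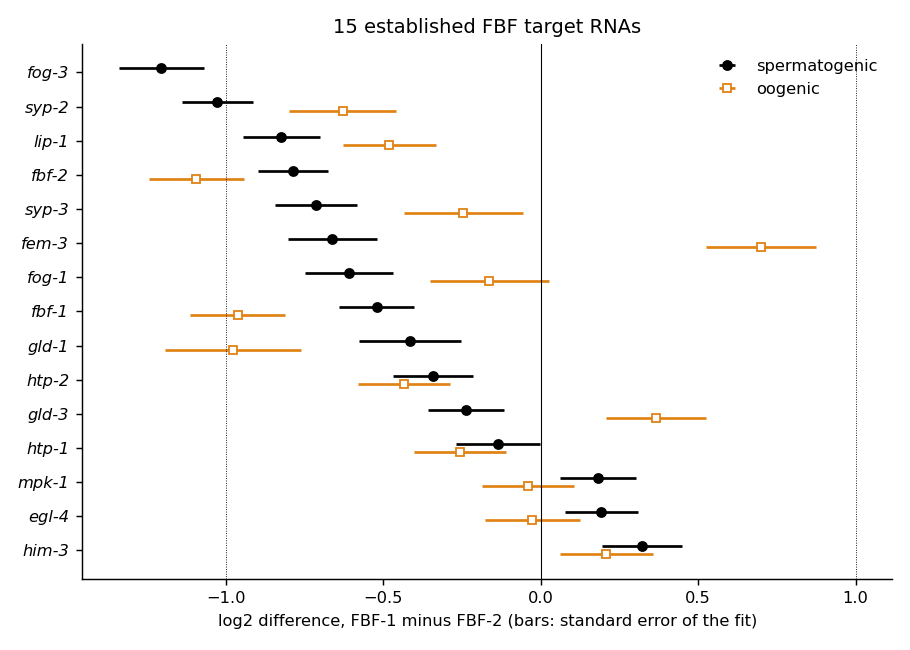
Log2 difference, FBF-1 minus FBF-2, of 15 established FBF target RNAs in spermatogenic germlines (filled circles) and in oogenic germlines (open squares, where tested), with the standard error of the fit as bars. The differences in spermatogenic germlines run from -1.2 for fog-3 to 0.32 for him-3, and the dotted lines mark 2-fold.

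Genes of the meiotic chromosome axis and of synapsis, which hold homologous chromosomes together while they pair and recombine, differed mostly toward FBF-2 as well. Of 29 tested, 23 were negative, with a median of -0.46, and 26 were higher than the control, beside 38.5% of all RNAs. 5 were called higher with FBF-2, beside 1.72% of all RNAs. zim-2, a zinc finger protein of a chromosome pairing center, had 123, 118 and 106 RPM with FBF-1 and 339, 221 and 246 RPM with FBF-2 (-1.25, SE 0.15). dsb-2, needed to make meiotic double-strand breaks, differed by -1.15, coh-4, a meiotic cohesin subunit, by -1.12, the axis protein htp-3 by -1.07, and syp-2 as above. All 5 had nonoverlapping groups, and without FBF-1 replicate 3 the count fell to 3, dsb-2 then having -0.94. Just short of the fold minimum, the cohesin genes coh-3 (-0.98) and rec-8 (-0.96) and the synaptonemal complex genes syp-4 (-0.88) and syp-1 (-0.84) passed the p threshold.

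On the FBF-1 side, sun-1 (0.54) and zyg-12 (0.42), whose proteins link chromosomes to the cytoskeleton through the nuclear envelope, passed the p threshold, and 1 RNA was called. This was lab-1, whose protein protects sister chromatid cohesion on the long arms of meiotic chromosomes. lab-1 (WBGene00007278, chromosome I, 9657012 to 9658023 on the minus strand in the same annotation) had 265, 249 and 228 RPM with FBF-1, 47.5, 57.3 and 57.6 RPM with FBF-2 and 18.4, 50.3 and 54.9 RPM in the controls. With 247 ± 18.3 RPM for FBF-1 and 54.2 ± 5.76 RPM for FBF-2 (SD, n = 3 each) it was 4.36-fold higher with FBF-1. The FBF-2 libraries overlapped the controls. The log2 difference of 2.12 (SE 0.14) kept its call in every alternative fit that tested it.

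Lists of 27 P granule and mRNP genes and of 9 MPK-1 pathway genes each had 1 called member, beside 5.72% of all RNAs. These counts are too small to set the lists apart from all RNAs. daz-1, a DAZ family RNA-binding protein needed for oogenesis, was the most abundant RNA called in either direction. daz-1 (WBGene00000935, chromosome II, 5456305 to 5458609 on the plus strand) had 429, 367 and 418 RPM with FBF-1, 1062, 911 and 901 RPM with FBF-2 and 64.3, 50.3 and 48.1 RPM in the controls. The difference was -1.28 (SE 0.12, adjusted p = 1.2e-09 in edgeR's quasi-likelihood test), or 2.42-fold. Both proteins stood clear of the control. In its list of 27 P granule and mRNP genes the median was -0.18, and car-1, an RNA-binding protein of processing bodies, came next with -0.97.

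lin-45, the RAF kinase upstream of MPK-1, had 264, 297 and 296 RPM with FBF-1, 711, 609 and 723 RPM with FBF-2 and 82.7, 67.1 and 68.7 RPM in the controls (-1.3, SE 0.12). It was more than 2-fold higher with FBF-2 in every pairing of the libraries, while the kinases downstream of it, mek-2 and mpk-1, had -0.08 and 0.18. Of 21 RNAs that the study listed as its most frequent FBF-RNA complexes, again chosen on these libraries, edgeR called 0 in either direction, and DESeq2 also 0. 14 of the 21 had an unadjusted p under 0.05 and were higher with FBF-2, and 0 were higher with FBF-1 at that level. Without FBF-1 replicate 2 or without FBF-2 replicate 2, 1 was called higher with FBF-2. 9 passed the adjusted p threshold with FBF-2 higher, but 4 did without FBF-1 replicate 1, without FBF-1 replicate 3 or without FBF-2 replicate 3.

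The RNAs of largest difference on the FBF-2 side had low counts. C18B10.6 had 0 counts in all 3 FBF-1 libraries and in all 3 controls, against 27, 84 and 32 counts with FBF-2. Its RPM with FBF-2 was at least 13.4-fold higher than the level 3 counts per FBF-1 library would give. The glutathione S-transferase gene gst-33 had 3, 0 and 3 counts with FBF-1 and 95, 186 and 120 counts with FBF-2 (-6.04, SE 0.29), with 1 count in the controls. gst-44 had 2 counts over the FBF-1 libraries and 133 over the FBF-2 libraries, a ratio of RPM of 67.2 (95% exact interval 18.2 to 561, counting error only). The cytochrome P450 gene cyp-33C2 had 3 counts against 138, a ratio of 46.5 (15.6 to 228). All 3 FBF-2 libraries held these RNAs, and FBF-1 and control libraries held almost none. Over the mean of both proteins, none of C18B10.6, gst-33, gst-44, cyp-33C2 and grl-16 was called higher than the control, while with FBF-2 alone all 5 were. The 5 reached the count minimum through the FBF-2 libraries and were picked for their difference, so the result with FBF-2 alone follows from the choice. grl-16, a ground-like protein, differed by -3.86. The 17 tested genes named gst, cyp or ugt were grouped after values were seen. Of them, 5 were called higher with FBF-2 and 1 with FBF-1, beside 1.72% and 4% of all RNAs.

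Cuticle collagens, secreted by the epidermis, were the most frequent named family on that side. Of 40 collagen genes tested, edgeR called 13 higher with FBF-2, beside 1.72% of all RNAs, as did DESeq2, while with FBF-1 higher edgeR called 0, with 0 at an unadjusted p under 0.05, and DESeq2 called 0. col-12 had 24.3, 17.1 and 25.6 RPM with FBF-1, 83.2, 131 and 101 RPM with FBF-2 and 9.18, 0 and 13.7 RPM in the controls (-2.24, SE 0.20). col-39 had 9.12, 17.1 and 10.8 RPM with FBF-1, 56.4, 60.9 and 68.9 RPM with FBF-2 and 0, 0 and 6.87 RPM in the controls. Both were several-fold higher in every FBF-2 library than in any FBF-1 or control library. col-73 (-3.28), col-77 (-2.45), col-167 (-2.42), col-117 (-2.18), col-133 (-1.97), col-17 (-1.70) and col-146 (-1.65) were called too, each with a mean between 20 and 50 counts, as were F15D4.5 (-3.1), W09B7.1 (-2.43) and agt-2 (-1.59), a DNA alkyltransferase homolog. Of the 40 collagens, 11 were higher and 9 lower than the control over the mean of both proteins, and col-73 and col-77 were neither. With all libraries thinned to 525318 counts, 4 collagens were called.

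Markers of the epidermis and of other somatic tissues were looked at beside these calls. The 8 epidermal markers tested, which are collagens and count among the 40 as well, had differences from -0.06 to 0.15, and edgeR called 0 of them in either direction, with 0 at an unadjusted p under 0.05, as DESeq2 did. Summed over 155 collagen genes the level was 11912 to 13129 RPM with FBF-1, 11196 to 15871 RPM with FBF-2 and 20498 to 24172 RPM in the controls, so that the proteins overlapped and the controls were higher than both. The 14 muscle markers had a median of -0.07 and the 11 intestine and yolk markers 0.30, and edgeR called 0 of either. DESeq2 called 1 intestine or yolk marker higher with FBF-2. At an unadjusted p under 0.05, 2 muscle markers and 3 intestine or yolk markers were higher with FBF-2, and 6 intestine or yolk markers were higher with FBF-1. The summed muscle level of 9721 to 10858 RPM with FBF-1 and 9335 to 11516 RPM with FBF-2 overlapped. The summed intestine and yolk level did not, with 10879 to 13030 RPM with FBF-1 and 7336 to 9560 RPM with FBF-2, nor did that of 15 neuron markers, with 815 to 897 RPM and 744 to 783 RPM. Both were higher with FBF-1. The part of somatic RNA in the called collagens was not tested.

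**Figure D4:**
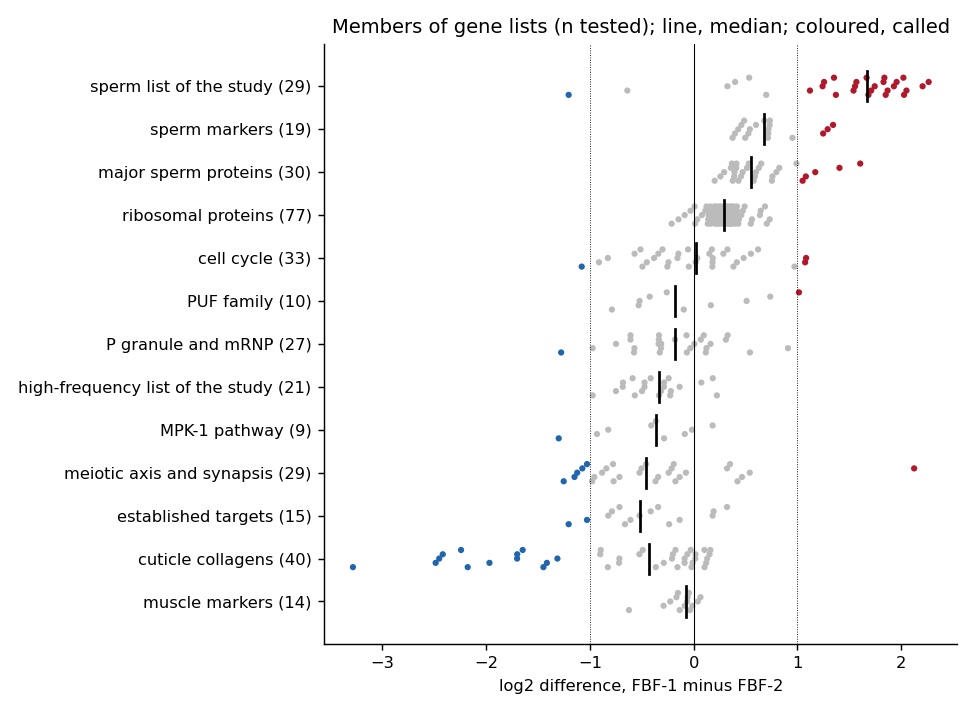
Log2 difference, FBF-1 minus FBF-2, of every tested member of 13 gene lists, 1 point per RNA, with the list median as a black line and called RNAs in red (higher with FBF-1) or blue (higher with FBF-2). The medians run from 1.67 for the sperm list of the study to -0.52 for the established targets, dotted lines mark 2-fold, and vertical offsets within a list carry no meaning.

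Broadly expressed gene families gave few calls. The 77 cytoplasmic ribosomal protein genes tested had a median of 0.30, beside 0.01 over all RNAs, and 73 were positive, but edgeR called 0, with 41 higher with FBF-1 at an unadjusted p under 0.05 and 0 higher with FBF-2, and DESeq2 called 0. Their shift was small and in 1 direction, and only 5 of the 77 were higher than the control. The 32 proteasome genes (median 0.05), 20 histone genes (0.09), 17 Argonaute genes (0.10), 20 deadenylase and cap or poly(A) binding genes (-0.11) and 14 mitochondrially encoded genes (-0.10) had medians near 0. 20 oocyte markers had a median of 0.10, and their sum was 5299 to 5671 RPM with FBF-1 and 4948 to 5541 RPM with FBF-2, which overlapped.

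Called RNAs were protein-coding in 235 of the 248 cases on the FBF-1 side and 105 of the 107 on the FBF-2 side. These were 4.14% and 1.85% of the 5673 protein-coding RNAs tested, beside 4% and 1.72% of all 6203 RNAs. Noncoding classes gave 1 call each for lincRNAs (linc-36, of 8 tested), snoRNAs (0.90% of 111) and tRNAs (0.85% of 117), all higher with FBF-1. Of 53 pseudogenes, 5 were called higher with FBF-1, or 9.43%, and 1 higher with FBF-2, or 1.89%. Of 34 mitochondrial RNAs 1 was called higher with FBF-1, or 2.94%. RNAs of the X chromosome, which is largely silent in the germline, were called less often. Of 372 tested, 2 were called higher with FBF-1, or 0.54%, and 3 higher with FBF-2, or 0.81%, beside 4% and 1.72% of all RNAs. On chromosome V 34 of 917 were higher with FBF-2, or 3.71%, the highest share of the chromosomes on that side, and the share higher with FBF-1 ran from 3.50% on chromosome III to 5.25% on chromosome II among the autosomes. The median exon length was 1136 bases for the RNAs called higher with FBF-1 and 1281 bases for those higher with FBF-2. Over the 5941 tested RNAs that matched the annotation it was 1580 bases. The lengths overlapped widely, with quartiles of 736 and 1800, 962.5 and 1820, and 985 and 2493 bases in the same order.

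The oogenic libraries gave a separate measurement of the same proteins in other animals, sharing no library with the spermatogenic ones. Of 4737 RNAs tested there, 187 were called higher with FBF-1, 3.95%, and 195 higher with FBF-2, 4.12%. FBF-1 oogenic replicate 1 held only 18749 counts, whereas the other 5 held 227790 to 1833483, and rRNA took 29.4 to 34.4% of the counts with FBF-2 and 13.2 to 16.9% in the 2 deeper FBF-1 libraries. 4609 RNAs were tested in both genders. Across these the differences in the genders correlated with a Pearson r of 0.38 and a Spearman rho of 0.38. This is a description across genes, which are not independent, and the libraries share the transgenes and deletions.

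Of the 248 RNAs called higher with FBF-1 in spermatogenic germlines, 63 were tested in oogenic ones. There 55 of the 63 had a positive difference, 21 were called higher with FBF-1, beside 3.73% of all RNAs tested in both genders, and 5 were called higher with FBF-2, beside 3.93%. The 21 came to 33.3% of the 63. Of the 107 called higher with FBF-2, 61 were tested, 55 of them were negative, and 14 were called higher with FBF-2. 19 of the 21 and 13 of the 14 were also higher than the control in spermatogenic germlines, beside 46 of the 63 and 44 of the 61. Without FBF-1 oogenic replicate 1 the counts of RNAs called in the same direction in both genders were 19 and 14. They moved with the tool and the scaling, to 4 and 8 with DESeq2 and to 49 and 3 with library-size scaling.

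The RNAs called in both genders included several of those above. lab-1 had 53.3, 106 and 123.8 RPM with FBF-1 and 29.4, 17.6 and 20.4 RPM with FBF-2 in oogenic germlines, a difference of 1.78. sygl-1 had 53.3, 251 and 219 RPM with FBF-1 and 62.6, 48.3 and 68.0 RPM with FBF-2 there, a difference of 1.38. In the shallow first FBF-1 library each of these levels rested on 1 count, and for sygl-1 that library fell within the range of the FBF-2 libraries. spe-44 differed by 1.64 in oogenic germlines, where its level was low (0 to 56.5 RPM with FBF-1). Toward FBF-2, coh-4 had 267, 270 and 250 RPM with FBF-1 and 478, 329 and 447 RPM with FBF-2, a difference of -1.23, and daz-1 differed by -1.1. ama-1, the large subunit of RNA polymerase II, was called higher with FBF-2 in both (-1.01 and -1.16). The difference of puf-7 was alike in size in both genders, 1.01 and 0.94, and under the fold minimum in oogenic ones.

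**Figure D5:**
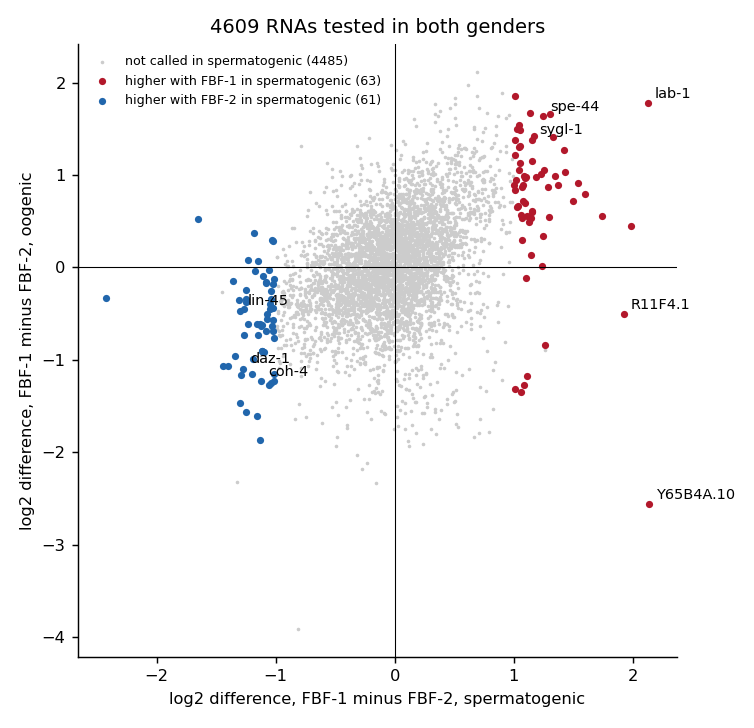
Log2 difference, FBF-1 minus FBF-2, in spermatogenic germlines (horizontal) and in oogenic germlines (vertical) for the 4609 RNAs tested in both. Of the RNAs called in spermatogenic germlines, 55 of the 63 higher with FBF-1 lie above 0 and 55 of the 61 higher with FBF-2 lie below it, while Y65B4A.10 lies far below it.

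The difference between the proteins itself differed between genders for 367 of the 6203 RNAs, or 5.92%, in an interaction test with edgeR at an adjusted p under 0.01. These included 12 of the 248 and 23 of the 107. With DESeq2, which called 94 on the FBF-1 side and 10 on the other, they included 7 of the 248 and 0 of the 107, whereas with library-size scaling they included 15 of the 248 and 67 of the 107. R11F4.1 was among the 367, with 372, 409 and 370 RPM with FBF-1 and 99.5, 101 and 93.8 RPM with FBF-2 in spermatogenic germlines. In oogenic ones it had 0, 33 and 33.3 RPM with FBF-1 and 48.9, 26.3 and 18.1 RPM with FBF-2. Its groups were far apart in the first and overlapped in the second, where the RNA was scarce. The first FBF-1 oogenic library held 18749 counts, so that its 0 allows up to 160 RPM. fem-3 had 74.0, 83.8 and 102 RPM with FBF-1 and 117, 146 and 134 RPM with FBF-2 in spermatogenic germlines, and 160, 270 and 250 RPM with FBF-1 and 112, 114 and 109 RPM with FBF-2 in oogenic ones. Its order thus reversed between the genders, and the fem-3 allele itself also differs between them. Its level of 160 RPM in that shallow oogenic library rested on 3 counts. The 5 RNAs called in opposite directions in the genders, among them the snoRNA Y65B4A.10 and the tRNA Y46G5A.t1, were lower than the control in spermatogenic germlines in 3 cases and neither higher nor lower in 2.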

How the data were processed

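Counts per gene were used as the authors deposited them, without normalization. Per the paper and the labels, reads were split by barcode, clipped, mapped with STAR (local alignment), stripped of multiply mapping reads, collapsed by barcode and assigned to exons with HTSeq. Novoalign is also named in the submitters' processing notes, without a role. The genome build, annotation and strand setting are not given in the sources used here, so overlapping genes are uncertain. A collapsed count stands for about 1 cross-linked fragment, intervals and limits cover counting error only, and 0 counts allow up to 3. The authors' 2 entries for reads on no gene (10.8 to 12.1% of the 6 libraries) and ambiguous reads (0.705 to 0.766%) were left out. Of the 26709 gene names, 25005 could be matched to the annotation of Ensembl release 115 (build WBcel235).

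Groups were compared with edgeR 4.0.16 (limma 3.58.1, R 4.3.3), glmQLFit with robust = TRUE and TMM factors (0.962 to 1.06), with Benjamini-Hochberg adjustment over all RNAs tested. Library-size scaling was used against the controls. On simulated counts with differences of 2 on the log2 scale, the test of the proteins recovered 100% of 174 changed RNAs with 1 false call among 6049. Changed RNAs that fell under the count minimum were not scored. The called differences had medians of 1.24 and 1.2, and recovery at such smaller sizes was not tested. Alternatives were DESeq2 1.42.0, other scalings, count minimums and thresholds, the replicate number as a block, other sets of libraries or genes, thinned libraries and each library left out. Tables and plots were made in Python 3.11.15 with pandas 2.3.3, scipy 1.17.1 and matplotlib 3.10.9.

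RNAs were named by these rules: called, nonoverlapping and above the control, the 10 largest per direction; called and nonoverlapping, the 5 largest; the same at a mean of at least 500 counts; all established targets; up to 6 called members per list and direction; and the 3 RNAs of smallest interaction p per direction. The members and lists were chosen with earlier results of these data known. Permuting 3 against 3 libraries cannot give a p below 0.1, so no such test is reported.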

Additional observations from a re-analysis of the deposited data

Results flagged for a closer look

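For 15 of the RNAs named by the rules, the difference between FBF-1 and FBF-2 differed between spermatogenic and oogenic germlines in the interaction test with edgeR (adjusted p under 0.01). The values are the spermatogenic minus the oogenic log2 difference, FBF-1 minus FBF-2. It was 1.51 for C34C12.4, 2.41 for R11F4.1, -1.98 for col-39, -2.16 for col-12, -5.78 for gst-44, -3.25 for col-73 and -2.81 for col-77. For the meiotic gene zim-2 it was -1.03 and for the RAF kinase gene lin-45 -0.86, both of which had negative differences in each gender. For fem-3 it was -1.39, and the sign of the difference changed between genders.

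The RNAs with the smallest p on each side were Y65B4A.10 with 4.67, Y46G5A.t1 with 2.30 and C38C6.8 with 1.82, and daf-1, a TGF-beta type I receptor, with -2.12, fem-3 as above and F41G3.6 with -1.39. The interaction of these 6 kept its call in every alternative fit that tested them. With DESeq2 the interaction was called for 0 of the 107 RNAs higher with FBF-2, so that col-39, col-12, gst-44, col-73, col-77, zim-2 and lin-45 lost it. The collagens and gst-44 were under the count minimum in oogenic germlines, and part of their values rests on few counts there.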

How the results depend on the processing

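The counts of RNAs called between the proteins were 248 and 107 and stayed within 1.5 times of these under DESeq2 (209 and 106), other scalings and other sets of libraries, but not under some thresholds. Without the fold minimum they were 753 and 621, with a mean of at least 100 counts 66 and 42, and with a minimum of 5 counts or none 231 and 247 RNAs were higher with FBF-2. Leaving out each library gave 229 to 275 and 99 to 140. Against the control, 2391 higher and 394 lower became 1251 and 916 with DESeq2, 1426 and 917 with TMM, 1539 and 839 with RLE factors and 1331 and 130 with a minimum of 100, and leaving out each library gave 1915 to 2414 and 334 to 418. In oogenic germlines 187 and 195 became 28 and 89 with DESeq2, 874 and 59 with library-size scaling, 458 and 541 without the fold minimum, 70 and 68 with a minimum of 100, 325 on the FBF-1 side with no minimum and 106 on the FBF-2 side without rRNA, tRNA and mitochondrial genes, and 145 to 185 and 137 to 224 with each library left out. The interaction counts of 220 and 147 became 94 and 10 with DESeq2, 105 and 1141 with library-size scaling, 378 and 355 at an adjusted p under 0.05, 118 on the FBF-1 side with a minimum of 100, and 134 to 244 and 82 to 173 with each library left out. The cause was not tested.

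Of 58 named RNAs that were called, 48 kept the call in every fit that tested them and 10 lost it in at least 1, and no named RNA changed direction. With the replicate number as a block the counts were 252 and 109, with 236 and 102 of the original calls among them. The labels do not say whether equal numbers mark a shared culture or day. Same-numbered libraries had correlations of deviations of -0.21, -0.10 and -0.08, and other pairs -0.03 to 0.17. Deviations within such small groups cannot exclude a pairing. Under the block 4 in place of 9 members of the high-frequency list passed the p threshold. Without RNAs at 0 in all controls, an alternative chosen after seeing the data, the counts were 244 and 92. Depth limits the RNAs near 20 counts, and thinning gave 180 and 76.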

Other observations

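The following called RNAs outside the lists were picked after their values were seen and stand for no group. knl-1, a kinetochore scaffold, had 463, 548 and 469 RPM with FBF-1, 242, 244 and 224 RPM with FBF-2 and 9.18, 33.5 and 68.7 RPM in the controls (log2 difference 1.01). hcp-2, a centromere protein, had 663, 860 and 643 RPM with FBF-1 and 359, 301 and 304 RPM with FBF-2 (1.13), and csc-1, a partner of Aurora B, had 131, 126 and 118 RPM with FBF-1 and 66.8, 65.3 and 45.2 RPM with FBF-2 (1.03). air-2, the Aurora B kinase of the cell cycle list, had 0.97 and passed the p threshold. In oogenic germlines the differences of knl-1, hcp-2 and csc-1 were 0.83, 0.49 and 0.65.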
